A study of Homo sapiens with 8 samples.

Results

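The genes of the platelet-derived growth factor (PDGF) ligands and receptors were examined in LX-2 cells under inhibition of the enzyme O-GlcNAc transferase (OGT) and under vehicle. The members were taken by gene symbol. They are the ligands PDGFA, PDGFB, PDGFC and PDGFD, the receptor kinases PDGFRA and PDGFRB, and the receptor-like gene PDGFRL, which make 7 of the 16796 genes in the count files. LX-2 is an established human line of hepatic stellate cells (HSCs), the pericyte-like cells of the liver that become collagen-producing myofibroblasts after injury. All cultures grew in medium with 5% serum. The control group received the vehicle DMSO and the OGTi group received OSMI-1, an inhibitor of OGT, at 50 µM for 24 h, with 4 libraries in each group. Since every library came from the same line, the replicates measure the spread between cultures of 1 line and not between donors.

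PDGF ligands are secreted dimers. PDGF-A and PDGF-B are released in active form after cleavage inside the cell, whereas PDGF-C and PDGF-D carry a CUB domain that must be cut off outside the cell before they can bind. The receptors PDGFRα and PDGFRβ are class III receptor tyrosine kinases that pair on ligand binding, phosphorylate each other and recruit PI3-kinase, phospholipase Cγ, Ras adaptors and Src-family kinases. PDGF-B acting through PDGFRβ is known as a strong mitogen and chemoattractant of activated HSCs, and PDGFRβ is a widely used marker of these cells.

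All 7 members passed the filter of at least 10 counts in total, and 4 of them fell in OGTi cells. These were the ligands PDGFB and PDGFC, the receptor PDGFRB and the receptor-like gene PDGFRL, with fold changes between 3.47-fold lower for PDGFB and 1.86-fold lower for PDGFRB. PDGFA, PDGFD and PDGFRA were not called, and 0 members rose. A gene was called when its adjusted p-value (q, DESeq2 with replicate as a block) was 0.05 or lower. Of the 14028 genes with a q, 46.6% were called, 24.0% as lower and 22.7% as higher, so a fall was common among all genes. The median log2 fold change of the 7 members was -0.90, and that of all genes tested was 0.00.

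Promoters are shown for both receptor kinases, because the receptors differed in level and because PDGFRB fell. They come from RefSeq (GRCh38.p14), run 5′ to 3′ on the strand of the gene and end shortly after the transcription start. Windows were given for 4 of the 7 members, namely PDGFA, PDGFD, PDGFRA and PDGFRB. Capitals mark matches, on either strand, to the CCAAT box (CCAAT), the GC box (GGGCGG) or the TEAD motif (GGAATG). The PDGFRB window lies at chr5:150155796-150156095 on the minus strand, and PDGFRA has an upstream window at chr4:54229043-54229342 and a downstream window at chr4:54233710-54234009, both on the plus strand.
PDGFRB: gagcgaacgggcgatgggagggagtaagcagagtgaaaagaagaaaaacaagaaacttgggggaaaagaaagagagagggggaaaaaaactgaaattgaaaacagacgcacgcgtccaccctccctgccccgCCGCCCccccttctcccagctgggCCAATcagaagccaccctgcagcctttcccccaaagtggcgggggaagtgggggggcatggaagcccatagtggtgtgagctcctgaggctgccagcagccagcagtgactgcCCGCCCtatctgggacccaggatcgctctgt
PDGFRA, upstream start: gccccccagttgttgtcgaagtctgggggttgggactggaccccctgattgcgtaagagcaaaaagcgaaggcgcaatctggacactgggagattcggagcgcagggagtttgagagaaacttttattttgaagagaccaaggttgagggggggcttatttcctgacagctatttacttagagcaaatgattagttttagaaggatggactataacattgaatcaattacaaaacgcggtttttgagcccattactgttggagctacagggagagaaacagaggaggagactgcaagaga
PDGFRA, downstream start: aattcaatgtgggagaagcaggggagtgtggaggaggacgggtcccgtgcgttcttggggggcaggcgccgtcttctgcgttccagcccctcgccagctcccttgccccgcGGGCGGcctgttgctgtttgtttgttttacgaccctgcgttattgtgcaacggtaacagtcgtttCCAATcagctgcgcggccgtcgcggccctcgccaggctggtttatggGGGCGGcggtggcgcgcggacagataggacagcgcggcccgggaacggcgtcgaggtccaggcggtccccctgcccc

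The PDGFRB window held 1 CCAAT box, 2 GC boxes and 0 TEAD motifs at a GC content of 59.3%. The downstream PDGFRA window held the same numbers of each motif at 66.7% GC, whereas the upstream one held 0 of all 3 motifs at 47.0% GC. Among 35116 promoter windows of the same length, 34.6% held a CCAAT box, 45.0% a GC box and 14.0% a TEAD motif. Each PDGFA window held 1 to 5 GC boxes and 0 or 1 CCAAT box. The PDGFD window held 1 GC box and 0 CCAAT boxes, and neither gene was called. These are matches of letters and not measured binding, and their relation to the changes was not tested. Which PDGFRA start was used in these cells was not analysed here.

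Levels of different genes were compared as TPM, that is counts per exon length scaled to the same total in every library. In control cells the order was led by PDGFC at 78.9 ± 9.12 TPM (SD, n = 4), followed by PDGFRB at 57.8 ± 6.59. PDGFB (12.6 ± 0.418) and PDGFA (12.5 ± 1.33) came next, and their libraries overlapped. PDGFRL at 5.05 ± 1.33, PDGFRA at 2.48 ± 0.377 and PDGFD at 0.253 ± 0.173 followed. PDGFC lay at percentile 80.8 and PDGFRB at percentile 74.8 of the genes tested, and PDGFD at percentile 8.61. The order of PDGFB and PDGFA depends on the length used. With the longest transcript in place of the union of exons, PDGFA was at 14.6 and PDGFB at 9.34 TPM.

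In OGTi cells PDGFC (39.9 ± 4.29 TPM) and PDGFRB (31.8 ± 1.95) still led. PDGFA was next at 12.0 ± 2.42 and PDGFB was below it at 3.74 ± 0.599, without overlap. PDGFRL (1.92 ± 0.877) and PDGFRA (1.76 ± 0.438) overlapped, and PDGFD was last at 0.262 ± 0.241. The summed level of the 4 ligands was 104.2 ± 8.38 TPM in control libraries, from 94.6 to 112.9, and 55.9 ± 3.79 in OGTi libraries, from 52.7 to 61.3. The summed level of PDGFRA and PDGFRB was 60.3 ± 6.37 in control and 33.5 ± 1.95 in OGTi libraries. Both sums were lower in every OGTi library than in any control library.

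**Figure D1:**
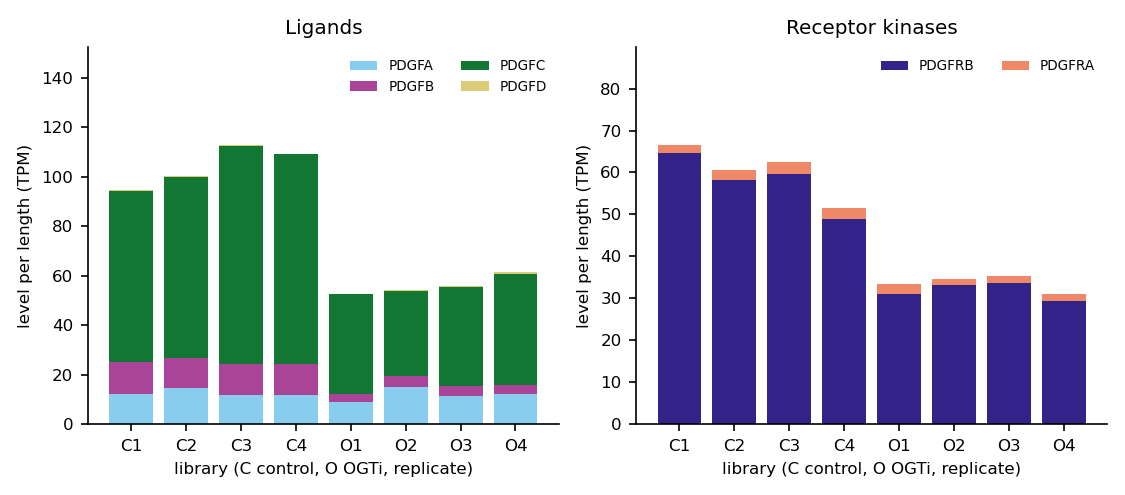
Stacked level per exon length (TPM) of the 4 ligands (left) and the 2 receptor kinases (right) in each library, with C for control, O for OGTi and the replicate number. PDGFC made up 75.5% of the ligand sum in control and 71.4% in OGTi libraries, and PDGFRB made up 95.8% and 94.7% of the receptor sum.

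PDGFB, the ligand best known for driving HSC proliferation, had the largest fall of the 4 ligands by log2 fold change. Its normalized counts (counts divided by a size factor of the library) were 288, 264, 282 and 276 in control replicates 1 to 4, and 64.9, 98.4, 83.6 and 75.1 in OGTi replicates 1 to 4. The highest OGTi library was far below the lowest control library. The mean went from 277 ± 10.3 to 80.5 ± 14.2 (SD, n = 4), or 28.8% of control, with a log2 fold change of -1.80 ± 0.20 (SE, 95% interval -2.18 to -1.41, DESeq2 q = 8.30e-19). PDGFB lies on chromosome 22 at 39223359 to 39244982 (hg38, minus strand, GENCODE release 44). Within pairs of the same replicate number the log2 change ran from -2.14 to -1.42. Among all genes called lower, 5.18% had a larger fall.

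PDGFC, the ligand that is activated outside the cell by proteases such as tissue plasminogen activator, was the most abundant member. It had 2305, 2399, 2902 and 2868 normalized counts in control and 1312, 1141, 1292 and 1408 in OGTi replicates 1 to 4. The groups did not overlap. Its mean fell from 2618 ± 310 to 1288 ± 111, with a log2 fold change of -1.02 ± 0.09 (SE, 95% interval -1.19 to -0.85, DESeq2 q = 1.26e-30), and all 4 pairs were lower. PDGFC lies on chromosome 4 at 156760454 to 156971799 on the minus strand.

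PDGFA, the ligand that binds PDGFRα in its homodimer, was not called. Control replicates 1 to 4 had 309.8, 363, 292 and 306 normalized counts and OGTi replicates 224, 379.7, 285 and 297. Replicate 1 alone carried most of the difference, with a log2 change of -0.47 within its pair against 0.07, -0.04 and -0.04 in the pairs 2 to 4. The log2 fold change was -0.12 ± 0.15 (SE, DESeq2 q = 0.550), and its 95% interval of -0.41 to 0.18 covers changes in either direction. PDGFD, the other ligand with a CUB domain, was at the edge of detection, with 10, 3, 8 and 2 raw counts in control replicates 1 to 4 and 0, 6, 5 and 13 in OGTi replicates. The sums were 23 counts (exact Poisson 95% interval 14.6 to 34.5) and 24 counts (15.4 to 35.7), and the intervals cover counting error only. A difference in PDGFD was not detectable at this depth, since the interval of its log2 fold change ran from -2.37 to 1.93 (DESeq2 q = 0.893). PDGFA lies on chromosome 7 at 497258 to 520296 and PDGFD on chromosome 11 at 103907189 to 104164379, both on the minus strand.

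**Figure D2:**
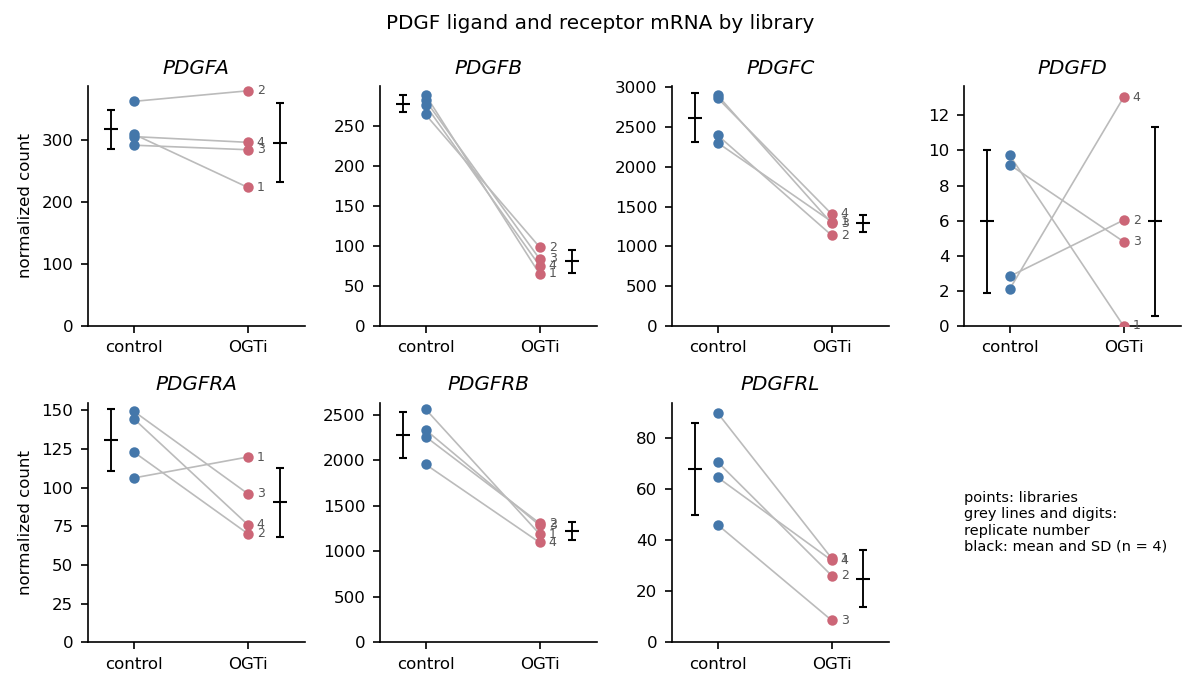
Normalized count of each member in the 4 control (blue) and 4 OGTi (red) libraries, on linear axes from 0, with grey lines joining libraries of the same replicate number and black bars for mean and SD. The groups are apart for PDGFB, PDGFC, PDGFRB and PDGFRL and overlap for PDGFA, PDGFD and PDGFRA.

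PDGFRB, which encodes a receptor for PDGF-B and PDGF-D, was the most abundant of the receptors. It had 2564, 2262, 2337 and 1957 normalized counts in control and 1192, 1311, 1287 and 1099 in OGTi replicates 1 to 4. Every OGTi library was below every control library. The mean went from 2280.3 ± 251 to 1222 ± 97.0 (SD, n = 4), or 53.7% of control, and the log2 fold change was -0.90 ± 0.09 (SE, 95% interval -1.07 to -0.73, DESeq2 q = 1.95e-23). The pairs were close to each other, from -1.11 to -0.79. PDGFRB lies on chromosome 5 at 150113839 to 150155872 (hg38, minus strand, GENCODE release 44).

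PDGFRA, which encodes a receptor for ligands that include PDGF-A and PDGF-C, missed the threshold. Control replicates 1 to 4 had 106, 123, 149 and 145 normalized counts, and OGTi replicates had 119.7, 70.3, 96.1 and 76.1. In replicate 1 the OGTi library was higher than its control (log2 change 0.17), and in replicates 2 to 4 it was lower (-0.80, -0.63 and -0.92). The log2 fold change was -0.55 ± 0.25 (SE, 95% interval -1.03 to -0.06) with a DESeq2 q of 0.0574. The call rests on replicate 1 and on the form of the model. Without replicate 1 the log2 fold change was -0.79 (DESeq2 q = 0.0149), without the replicate block it was -0.53 (DESeq2 q = 0.0398), and edgeR with the block gave -0.54 (q = 0.0275). It was not called without replicate 2 (-0.46, DESeq2 q = 0.241), replicate 3 (-0.52, DESeq2 q = 0.184) or replicate 4 (-0.42, DESeq2 q = 0.303). Nor was it called by edgeR without the block (-0.52, edgeR q = 0.0525). PDGFRA lies on chromosome 4 at 54229280 to 54298245 on the plus strand.

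PDGFRL encodes a secreted protein with sequence likeness to the ligand-binding part of the receptors and without a kinase domain. It was low in abundance, with 89.6, 70.5, 46.0 and 64.5 normalized counts in control and 32.9, 26.1, 8.65 and 32.1 in OGTi replicates 1 to 4. The highest OGTi library lay below the lowest control library, and replicate 3 was the lowest of both groups. PDGFRL lies on chromosome 8 at 17576433 to 17644071 on the plus strand. The mean fell from 67.6 ± 18.0 to 24.9 ± 11.3, with a log2 fold change of -1.52 ± 0.36 (SE, 95% interval -2.23 to -0.81, DESeq2 q = 0.000119). The 4 members that fell were also the 4 whose groups did not overlap, and 38.0% of all 14895 genes tested had groups that did not overlap. These are bulk libraries, in which fewer cells with the mRNA and less mRNA per cell cannot be told apart.

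**Figure D3:**
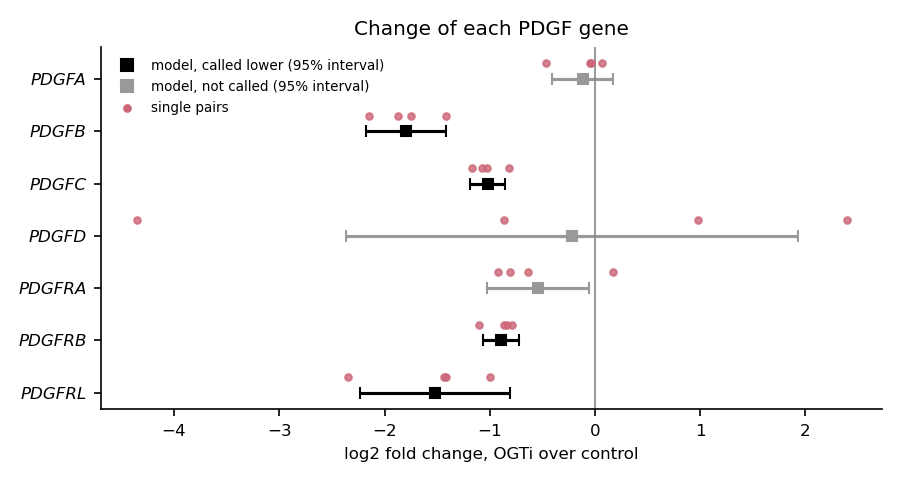
Log2 fold change of each member, OGTi over control, as the DESeq2 estimate with its 95% interval (squares, black where called lower, grey where not called) and the change in each of the 4 pairs (red points, with a pseudocount of 0.5). The intervals of PDGFB, PDGFC, PDGFRB and PDGFRL lie wholly below 0, as does that of PDGFRA, which was not called after adjustment.

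Within each library, 3 ratios set members of like role against each other. The log2 ratio of PDGFB to PDGFA was -0.19 ± 0.18 in control, from -0.46 to -0.05, and -1.86 ± 0.11 in OGTi libraries, from -1.97 to -1.76. The ratio was lower in 4 of 4 pairs and the groups did not overlap. The difference of -1.67 ± 0.14 (SD over pairs) gave a two-sided exact permutation p of 0.0286, which is the smallest that 4 against 4 libraries allow, and 0.0857 after adjustment over the 3 ratios. It thus failed the correction, but a single ratio at the smallest p cannot pass it in this design, and an exact permutation test over the 4 pairs gave 0.125, the smallest that 4 pairs allow. As a share of the ligand sum per length, PDGFB went from 12.1% ± 1.14 to 6.71% ± 1.17, and PDGFA from 12.1% ± 1.93 to 21.4% ± 4.44.

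The ratio of the receptors, PDGFRB to PDGFRA, was 4.12 ± 0.36 on the log2 scale in control and 3.77 ± 0.37 in OGTi libraries. The groups overlapped and 2 of 4 pairs were lower (difference -0.35 ± 0.63, exact permutation p = 0.229, adjusted p = 0.343). The log2 ratio of PDGFD to PDGFC, with a pseudocount of 0.5, differed by 0.55 ± 3.02 (exact permutation p = 0.657, adjusted p = 0.657), and the counts of PDGFD were few.

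**Figure D4:**
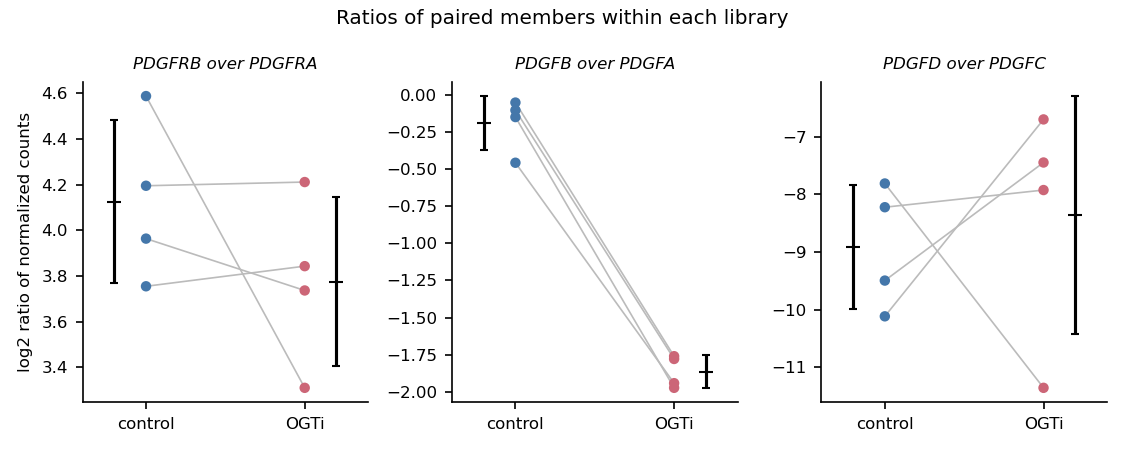
Log2 ratio of normalized counts within each library for 3 pairs of members, in control (blue) and OGTi (red) libraries, with grey lines joining the same replicate number and black bars for mean and SD (n = 4). Each panel has its own axis, and the groups are apart for PDGFB over PDGFA and overlap for the other panels.

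Genes around the receptors were taken from 5 lists with 70 entries, of which 67 were tested. Of these, 20 fell (29.9%, against 24.0% of all genes), 16 rose (23.9%, against 22.7%) and 31 were not called. The median log2 fold change of the 67 genes was -0.01. Each list held genes that fell and genes that rose.

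Among genes for ligand processing and co-receptors, 2 of 8 tested fell and 2 rose (median -0.06). PLAT, which encodes tissue plasminogen activator, a protease that activates PDGF-C, rose from 1959 ± 306 to 4102 ± 1057 normalized counts (log2 fold change 1.05 ± 0.10, DESeq2 q = 1.14e-23). Its rise was seen in 4 of 4 pairs, and a link to the fall of PDGFC was not tested. FURIN, a convertase of ligand precursors, fell from 5453 ± 468 to 4405 ± 315 (-0.31 ± 0.07, DESeq2 q = 6.68e-05), and SPARC, a matrix protein that binds PDGF-B, fell from 22910.3 ± 967 to 15840.0 ± 1415 (-0.54 ± 0.07, DESeq2 q = 3.86e-15). PCSK5, another convertase, also rose, at fewer than 100 normalized counts. PLAU (-0.42, DESeq2 q = 0.0776), LRP1 and NRP1 were not called, and PCSK6 and ST14 had too few counts to be tested.

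Of 26 signal transducers bound by the receptors, 8 fell, 3 rose and 15 were not called (median -0.00). The largest change was that of PIK3R1, a regulatory subunit of PI3-kinase, which rose from 488 ± 35.0 to 1046 ± 94.5 normalized counts (1.10 ± 0.11, DESeq2 q = 1.04e-22). STAT5B, a transcription factor activated by many receptors, fell from 2134 ± 115 to 1146 ± 38.0 (-0.90 ± 0.08, DESeq2 q = 2.02e-25). NRAS, which encodes a Ras GTPase, fell in 4 of 4 pairs, from 2462 ± 415 to 1433 ± 265 (-0.78 ± 0.08, DESeq2 q = 3.85e-22). The adaptor GRB2 went from 3632 ± 136 to 3622 ± 209 normalized counts and phospholipase PLCG1 from 4656 ± 114 to 4657 ± 271, and neither was called. Both were chosen after their values were seen.

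Of 9 negative regulators, 3 fell and 2 rose (median -0.04). The receptor phosphatase PTPRJ fell from 976 ± 68.1 to 639 ± 68.0 (-0.61 ± 0.11, DESeq2 q = 3.90e-08). SH2B3, an inhibitory adaptor, rose from 4688 ± 853 to 7629 ± 494 (0.72 ± 0.10, DESeq2 q = 1.60e-11), and RASA1, a Ras GTPase-activating protein, rose from 623 ± 61.0 to 836 ± 105 (0.42 ± 0.11, DESeq2 q = 0.000613).

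Of 18 genes that PDGF is known to induce in fibroblasts, 6 fell, 7 rose and 5 were not called (median 0.13). JUNB, a subunit of the AP-1 transcription factor, rose from 464 ± 47.1 to 1201 ± 173 normalized counts (1.37 ± 0.12, DESeq2 q = 4.04e-30), and the immediate early gene IER2 rose from 1498 ± 112 to 2358 ± 328 (0.65 ± 0.09, DESeq2 q = 5.36e-13). EGR1, an immediate early transcription factor, fell from 3088 ± 227 to 1528 ± 516 (-1.07 ± 0.23, DESeq2 q = 1.07e-05). CCND1, the cyclin of early G1, had 3681, 6511, 7099.6 and 8901 normalized counts in control and 12398, 10366, 9338 and 11774 in OGTi replicates 1 to 4. It rose (0.80 ± 0.29, DESeq2 q = 0.0143). The call was lost without replicate 2 (0.84, DESeq2 q = 0.0872) or without replicate 4 (0.93, DESeq2 q = 0.0503), where the value was not smaller, and without replicate 1 the value was 0.49 and still called (DESeq2 q = 1.07e-08).

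Among the other class III receptor kinases and their ligands, 1 of 6 tested fell and 2 rose (median -0.46). That median lies between FLT3LG (-0.16, DESeq2 q = 0.476) and CSF1R (-0.76, DESeq2 q = 0.553), and neither was called. CSF1R had mean normalized counts of only 6.88 in control and 4.42 in OGTi libraries. KIT, the receptor of stem cell factor, had 107, 181, 240.2 and 154 normalized counts in control and 36.6, 108, 88.4 and 94.2 in OGTi replicates 1 to 4. It fell in 4 of 4 pairs (-1.09 ± 0.23, DESeq2 q = 1.30e-05), although the lowest control library and the highest OGTi library crossed. KITLG, the ligand of KIT, rose (0.45 ± 0.14, DESeq2 q = 0.00310) and was higher in 3 of 4 pairs. The call was lost without the replicate block, at a similar value with a larger error (0.39 ± 0.31, DESeq2 q = 0.315), and without replicate 1, at a smaller value (0.27 ± 0.13, DESeq2 q = 0.0772). CSF1, a ligand of the neighbouring receptor CSF1R, rose from 827 ± 91.0 to 1086 ± 112 (0.39 ± 0.09, DESeq2 q = 0.000149). FLT3 was not tested for lack of counts, and IL34 was too low to receive a q.

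**Figure D5:**
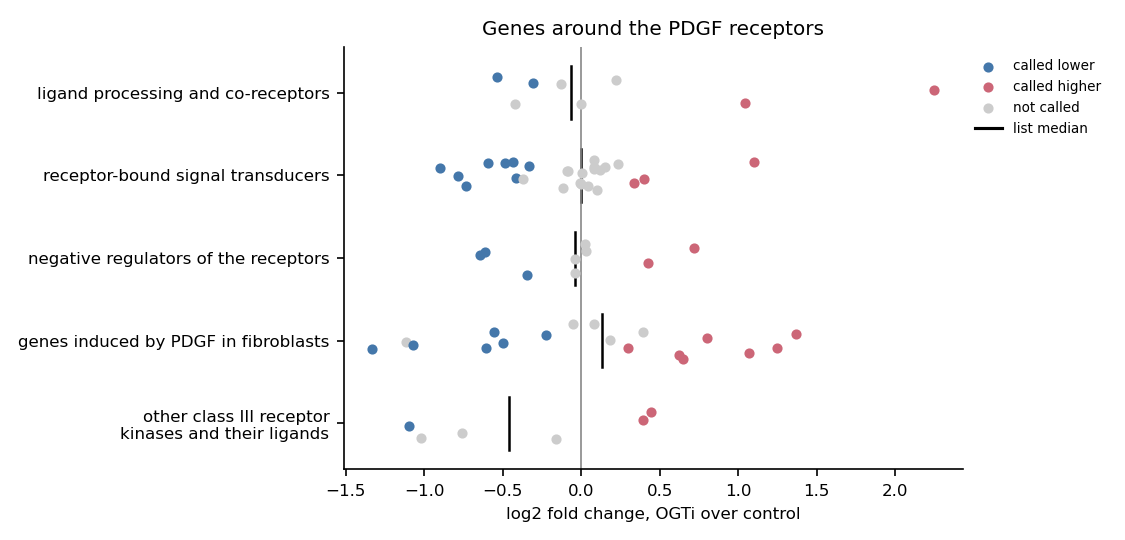
Log2 fold change, OGTi over control, of each tested gene in the 5 lists around the receptors, coloured by call, with a black line at the median of each list. Each list holds genes called lower and genes called higher, and the medians lie between -0.46 and 0.13.

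The genes most like each member were found over 4 pairs, as the smallest root mean square (RMS) difference between log2 changes within pairs, among 10993 genes whose mean reached 100 normalized counts. KCNS1, a potassium channel subunit, was nearest to PDGFB (RMS 0.0975, against a median of 1.82 over all genes), followed by the carboxypeptidase gene CPA4 (0.139) and the metalloprotease gene TLL1 (0.143). PDGFC was nearest to PCDHB13 (0.0465), ZNF532 (0.0470) and FUBP1 (0.0709), with a median of 1.04 over all genes. For PDGFRB the nearest were CKAP4 (0.0458), SUMO3 (0.0609) and EHD2 (0.0769), with a median of 0.922.

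PDGFRA, with its different value in replicate 1, was nearest to ETV4 (0.0730), KCNC4 (0.0760) and ZNF112 (0.190), with a median of 0.733. PDGFA was nearest to TRNP1 (0.0389), C19orf12 (0.0419) and HSPB11 (0.0425), with a median of 0.406. None of the nearest genes was itself a member. For PDGFB, PDGFC and PDGFRB the median over all genes was close to the size of the member's own change. The median therefore does not measure how close a match is. Likeness over 4 pairs is a description, and PDGFD and PDGFRL were too low for it.

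The libraries held 24166756 to 28201215 counts, and the members' counts were whole numbers in all 8 libraries. As a check of the label, 6 of 10 markers of HSCs and myofibroblasts had at least 10 counts in every library (COL1A1, COL1A2, COL3A1, ACTA2, TAGLN and VIM), whereas DES, LRAT, DCN and LUM had 0 to 6 counts. The summed level per length of these markers was 5382 to 6477 TPM in control and 4189 to 5190.1 in OGTi libraries, so the sum was lower in every OGTi library, as PDGFRB was. VIM was the largest part of it and its mean changed little (3318 and 3217 TPM). COL1A1 (1702 and 905 TPM) and TAGLN (819 and 397 TPM) had lower means in OGTi libraries, as did COL1A2, COL3A1 and ACTA2. The part of these markers in the members' changes was not tested. The pericyte list held 5 of 6 genes at this count, with summed levels of 308.1 to 369.0 in control and 277 to 355 in OGTi libraries, most of it CSPG4 (mean 269.6 and 284 TPM). MCAM (53.8 and 17.0 TPM) and NOTCH3 (2.48 and 1.63 TPM) had lower means in OGTi libraries. The means of ABCC9 (9.04 and 8.32 TPM) and RGS5 (1.86 and 1.70 TPM) changed less. KCNJ8, with 0 to 7 counts, had a higher mean in OGTi libraries (0.114 and 0.209 TPM).

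Of markers of other liver cells, some were not among the 16796 genes counted. This leaves 3 for macrophages and leukocytes, 4 for endothelial cells, 3 for cholangiocytes and 2 for hepatocytes. In these lists, 2 of 6 for macrophages and leukocytes reached 10 counts in every library, and their sum was 211 to 336 in control and 470.2 to 808 in OGTi libraries, nearly all of it CD68, while the leukocyte gene PTPRC had 0 to 10 counts. For endothelial cells 2 of 6 reached it, with sums of 30.2 to 40.2 and 40.4 to 74.2, nearly all of it TIE1 (mean 33.4 and 50.9 TPM). The endothelial markers CDH5 (1.12 and 0.118 TPM), VWF (0.462 and 0.348 TPM) and PECAM1, with 1 to 9 counts, had lower means in OGTi libraries. For cholangiocytes 2 of 5 reached it, with sums of 31.1 to 52.0 and 45.1 to 61.7, most of it SOX9 (mean 38.4 and 49.5 TPM). KRT7 had a lower mean in OGTi libraries (4.99 and 2.51 TPM), and KRT19 had 0 to 3 counts. For hepatocytes 1 of 6 reached it, with sums of 0.726 to 2.72 and 0.984 to 2.80, and APOA1 had 0 to 1 count. Their part in the members' changes was not tested.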

How the data were processed

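Messenger RNA of LX-2 cells was enriched with oligo dT, and strand-specific paired-end libraries were sequenced. Alignment to hg38 by the authors used Bowtie2 2.3.5.1 and counting used RSEM 1.3.1 (versions per the submitters' processing notes). The deposited values are expected counts (estimated counts, since RSEM divides reads of several alignments among genes), and they are not scaled for depth. The authors also deposited a table of their own DESeq2 1.36.0 comparison (mean, log2 fold change, error, Wald statistic and p-values), of which nothing was used. One control library has its vehicle spelled DSMO in the labels and was grouped with the control libraries.

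Expected counts were rounded, and genes with fewer than 10 counts in total were left out, which kept 14895 genes. All 8 libraries were fitted by DESeq2 1.42.0 (Wald test, R 4.3.3), with replicate as a block, median-of-ratios scaling, independent filtering and no shrinkage, and q is the Benjamini-Hochberg adjusted p-value over all genes. The study's methods pair treated and control samples. In the data, libraries of the same number deviated together (Pearson r across 10994 genes of 0.366, 0.387, 0.160 and 0.324 for replicates 1 to 4, where genes are not independent replicates). Control replicate 3 correlated more with OGTi replicate 4 (0.335), and OGTi replicate 3 more with control replicate 4 (0.251), than with each other, so the numbering of replicate 3 rests on the labels and not on the data. No replicate was a copy of another (chi-square per degree of freedom 8.38 to 34.7). Ratios were compared with two-sided exact permutation tests over 4 against 4 libraries. Levels per length (TPM) used exon unions of GENCODE release 44 and are scaled counts, not the authors' values. In addition to the members, the text names for each list up to 4 called genes with the largest absolute change among those whose mean reached 100 normalized counts, and for each member above that mean the 3 nearest genes. Some genes that this rule names are not reported here. Other genes named were chosen after their values were seen. The members and gene lists were chosen with earlier results of these data known. Alternatives were DESeq2 without the block, edgeR 4.0.16 (quasi-likelihood) with and without it, TMM scaling, no filter, at least 10 counts in 4 libraries, no independent filtering, and leaving out each replicate number. The fitting code was tested on simulated counts.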

Additional observations from a re-analysis of the deposited data

How the results depend on the processing

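PDGFB, PDGFC, PDGFRB and PDGFRL were called lower under all 11 alternatives of the fit. Their log2 fold changes ranged from -1.92 to -1.68, from -1.09 to -0.97, from -0.93 to -0.83 and from -1.71 to -1.30, and the largest DESeq2 or edgeR q among them was 0.00545. PDGFA was never called, with values from -0.18 to -0.00. PDGFRA was called lower under 4 alternatives. These were DESeq2 without the replicate block (-0.53, q = 0.0398), edgeR with the replicate block (-0.54, q = 0.0275), a filter of 10 counts in 4 libraries (-0.54, DESeq2 q = 0.0443) and the fit without replicate 1 (-0.79). Leaving out each replicate in turn gave PDGFRA values from -0.79 to -0.42. The replicate block changed no other call of a member. For the log2 ratio of PDGFB to PDGFA, the exact permutation test within pairs (replicate block) has the same difference of -1.67 with p = 0.125, which 4 pairs cannot go below. PDGFD reversed when replicate 1 (0.89) or replicate 3 (0.17) was left out, with a range of -1.33 to 0.89, and had no value under the filter of 10 counts in 4 libraries. The change in its log2 ratio to PDGFC reversed to -0.40 without replicate 4 (range -0.40 to 1.92). With the longest transcript as the length, control levels in TPM became 14.6 for PDGFA, 9.34 for PDGFB and 50.3 for PDGFRB. Among other genes named, leaving out replicates turned the sign of TRNP1 (range -0.20 to 0.017), C19orf12 (-0.15 to 0.011) and RPL3 (-0.046 to 0.073), which were not called. In all, 686 of 713 alternative values met the following limits. Results with a test kept their direction and side of the threshold, counts of called genes stayed within 1.5 times, and levels, and ratios without a replicate, moved by less than 1 SD (over control libraries for levels, over pairs for ratios). The cause of the changes was not tested. Counting depth limits PDGFD, and the spread of 4 pairs limits PDGFRA.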

Other observations

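The nearest tested genes on the chromosome were looked up for the 3 most clearly lowered members, after the values were seen. CSF1R, the receptor of CSF1, starts 0.467 kb from PDGFRB in GENCODE release 44. Its mean normalized count was 6.88 ± 1.97 in control cells and 4.42 ± 2.47 in OGTi cells (DESeq2 q = 0.553), so that it was close to the limit of detection where PDGFRB was abundant. SLC6A7, 34.2 kb away on the other side, was as low (3.75 ± 3.39 and 7.47 ± 3.02) and not called (DESeq2 q = 0.344). CBX7, a Polycomb gene 70.7 kb from PDGFB, fell by 0.56 on the log2 scale (SE 0.13, DESeq2 q = 5.32e-05), and RPL3, 67.9 kb away on the other side, had a log2 fold change of 0.01 (DESeq2 q = 0.908). CTSO, which encodes a cathepsin and lies 806.5 kb from PDGFC, had a log2 fold change of 1.45 ± 0.37 (DESeq2 q = 0.000421), opposite to that of PDGFC. Its counts were low, with means of 24.6 ± 4.59 in control and 69.6 ± 23.8 in OGTi cells. GLRB, 104.3 kb from PDGFC on the other side, was not called (-0.18, DESeq2 q = 0.215).

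Members of the AP-1 family did not move alike. FOSB had a mean normalized count of 58.5 ± 14.8 in control cells and 137 ± 25.0 in OGTi cells (log2 fold change 1.25 ± 0.26, DESeq2 q = 6.40e-06), and FOS had 54.1 ± 14.0 and 113 ± 22.8 (1.07 ± 0.29, DESeq2 q = 0.000668). FOSL1, which was far more abundant, had 12381 ± 2480 and 12986 ± 1663 and was not called (0.08 ± 0.07, DESeq2 q = 0.369). JUN fell by 0.50 on the log2 scale (DESeq2 q = 1.01e-08), as did SRF, a regulator of immediate early genes, by 0.60 (DESeq2 q = 1.81e-13). These genes were chosen after their values were seen.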
